A study of Mus musculus with 20 samples.

Results

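Ly6C low MoMac, the monocyte-derived macrophages of the injured liver that carry little Ly6C on their surface, were compared between mice given acetyl-6-formylpterin (Ac-6-FP) and mice given its vehicle. The comparison used 10 of the 20 libraries of the study, the 5 Ly6C low libraries of Ac-6-FP mice 16 to 20 and the 5 of vehicle mice 11 to 15, and each mouse gave 1 Ly6C low and 1 Ly6C high library. All 10 mice were C57BL/6 animals (of the J substrain in the study's methods) aged 10 to 12 weeks. They were made fibrotic by carbon tetrachloride (CCl4), 0.6 ml/kg 2 times a week for 4 weeks. Ac-6-FP was given intraperitoneally at 0.25 mg/kg before the last CCl4 injection and daily for the 2 days that followed. Every group thus had the same CCl4 schedule, and the extent of liver injury was not compared here. The vehicle was 1% DMSO in phosphate-buffered saline. Cells were sorted from the non-parenchymal liver fraction as CD11b and F4/80 positive and Ly6G, CD11c and CD3 negative, then split by their Ly6C level. Mice without CCl4 were not analysed here, so the values describe fibrotic liver only.

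Ac-6-FP binds MR1, the molecule that presents vitamin B metabolites to mucosal-associated invariant T (MAIT) cells, and blocks their activation. MAIT cells are innate-like T cells that release cytokines such as interferon gamma, tumour necrosis factor and interleukin-17, to which macrophages respond through the STAT and NF-kappaB pathways. In a healing liver, Ly6C high inflammatory monocytes give way to Ly6C low macrophages, which clear debris and degrade scar. The comparison asks which genes of the Ly6C low cells differ when MAIT cell activation is blocked.

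Values are normalized counts, the reads on a gene divided by a size factor of its library, without division by gene length, so levels were compared between libraries and not between genes. Differences are Ac-6-FP minus vehicle on the scale of log2(normalized count + 1), with their standard error (SE). The vehicle library of mouse 13 stood apart, with 5693049 reads on genes and 5343 genes above 0. The other 4 vehicle libraries held 10298994 to 14422347 reads and 9788 to 15723 genes, and the 5 Ac-6-FP libraries 11242457 to 15938434 reads and 11156 to 15766 genes. The main values therefore rest on 9 libraries (4 vehicle and 5 Ac-6-FP), and log2 differences with mouse 13 included are given for genes in which that library moved the value by over 1.5 times or across 0. Of 17248 genes tested, 6358 were above 0 in all 9 libraries, 4593 of them with a gene symbol, and mouse 13 was at 0 for 2272 of the 6358. Lpin1, at 4.96 and 4.45 normalized counts in vehicle mice 12 and 14, lies just inside this limit, and Ifng, at 0 in vehicle mouse 12 only among the 9, just outside it. Among all 10 libraries, the number of genes above 0 was 10952 ± 3954 (SD, n = 5) in vehicle and 14024 ± 1880.2 (SD, n = 5) in Ac-6-FP libraries (exact permutation test, two-sided, p = 0.159). Without mouse 13 the difference was 1669 genes (exact p = 0.317), and without mouse 11 it was 4264 genes (exact p = 0.0476).

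**Figure D1:**
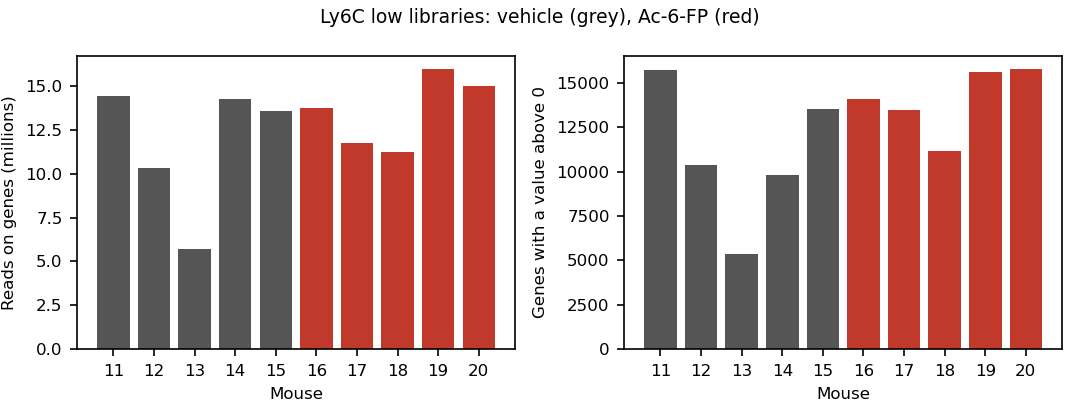
Reads on genes (left) and genes with a value above 0 (right) in each of the 10 Ly6C low libraries, by mouse, with vehicle in grey and Ac-6-FP in red. Mouse 13 has the fewest reads (5693049) and the fewest genes (5343), and vehicle mice 12 and 14 have 10379 and 9788 genes.

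The labelled subset was checked against genes of the sort. Ly6c2, which encodes the Ly6C antigen, was at 284 to 1014 normalized counts in the 10 Ly6C low libraries and at 4930.2 to 10012 in the 10 Ly6C high libraries, with no overlap. Treml4, a receptor of Ly6C low monocytes, was at 2929.9 to 10465 in Ly6C low and 394 to 1938 in Ly6C high libraries. Adgre1, which encodes F4/80, ranged from 1058 to 7223 in the Ly6C low libraries, and Cd3e, a chain of the T cell receptor complex, from 0 to 11.1. Other genes were less clear. Itgam, which encodes CD11b, ranged from 2.09 to 4759 in the Ly6C low libraries, and Ly6g from 0 to 192. Ccr2 overlapped between the subsets (2651 to 11641 in Ly6C low, 9986 to 22961 in Ly6C high), as did Cx3cr1 (1111 to 8140 and 1108 to 3700). Genes of natural killer (NK) cells were also abundant in the Ly6C low libraries. The granzyme gene Gzma was at 17527 to 38619 there, against 0 to 223 in the Ly6C high libraries.

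Promoter windows are shown for 4 genes on which the account below turns, the 3 markers given for the comparison (Rgs16, Ifng and Nfkbia) and Socs3, the gene with the smallest p among those above 0 in all 9 libraries. Each covers 250 bases before and 50 after the RefSeq transcription start in GRCm38.p6, printed 5′ to 3′ on the strand of the gene. Capitals mark matches, on either strand, to TTCNNNGAA, the palindrome bound by STAT factors, or to GGNNNTTCC, a relaxed form of the site bound by NF-kappaB.
Rgs16, chr1:153740103-153740402, plus strand: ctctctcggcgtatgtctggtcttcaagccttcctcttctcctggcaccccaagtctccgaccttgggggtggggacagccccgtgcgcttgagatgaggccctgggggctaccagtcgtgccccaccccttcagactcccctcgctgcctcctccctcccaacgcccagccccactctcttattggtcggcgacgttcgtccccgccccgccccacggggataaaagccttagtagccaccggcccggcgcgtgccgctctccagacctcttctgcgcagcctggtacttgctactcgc
Ifng, chr10:118440796-118441095, plus strand: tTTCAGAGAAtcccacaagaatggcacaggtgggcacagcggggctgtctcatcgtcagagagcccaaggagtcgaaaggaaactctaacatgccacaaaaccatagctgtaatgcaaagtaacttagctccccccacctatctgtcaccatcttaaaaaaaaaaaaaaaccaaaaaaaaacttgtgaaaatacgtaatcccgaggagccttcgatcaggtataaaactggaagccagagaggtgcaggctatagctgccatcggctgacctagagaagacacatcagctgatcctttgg
Nfkbia, chr12:55492598-55492897, minus strand: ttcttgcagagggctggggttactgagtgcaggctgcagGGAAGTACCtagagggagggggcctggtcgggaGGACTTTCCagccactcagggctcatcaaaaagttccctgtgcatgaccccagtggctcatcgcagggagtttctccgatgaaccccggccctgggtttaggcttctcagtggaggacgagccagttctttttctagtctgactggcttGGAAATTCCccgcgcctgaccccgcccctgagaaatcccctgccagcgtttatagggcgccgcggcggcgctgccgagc
Socs3, chr11:117969317-117969616, minus strand: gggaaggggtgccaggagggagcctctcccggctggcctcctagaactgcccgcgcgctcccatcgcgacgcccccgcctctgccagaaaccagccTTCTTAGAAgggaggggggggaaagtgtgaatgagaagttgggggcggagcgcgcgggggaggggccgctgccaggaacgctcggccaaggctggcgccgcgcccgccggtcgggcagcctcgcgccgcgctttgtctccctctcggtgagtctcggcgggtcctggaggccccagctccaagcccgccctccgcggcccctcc

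The Nfkbia window holds 3 matches to GGNNNTTCC, starting 211, 178 and 29 bases before the transcription start, and Socs3 holds TTCTTAGAA starting 154 bases before it. The Ifng window holds TTCAGAGAA at its far end, 249 bases before the start, and the Rgs16 window holds neither motif. Of 32817 windows in the table, 8.29% hold TTCNNNGAA and 18.5% hold GGNNNTTCC, so neither motif is rare. Among the 15 higher and 15 lower leading genes described below, 11 and 14 had a window. TTCNNNGAA was held by 1 of the 11 (Socs3) and 2 of the 14, and GGNNNTTCC by 2 of the 11 and 6 of the 14. A match describes the letters of a window and not a bound site. Of 108 named genes, 86 had a window.

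No gene passed an adjusted p of 0.05 over the 9 libraries (limma on all 17248 genes, Benjamini-Hochberg adjustment, 0% called). At an unadjusted p under 0.05 there were 1247 genes (7.23%), 995 higher with Ac-6-FP (5.77%) and 252 lower (1.46%). The share of higher genes among them, 79.8%, moved with the scaling and the model. It was 55.5% after quantile normalization, 63.6% in a fit adjusted for the genes detected per library and 56.6% in edgeR on recovered reads, which called 0 genes with 1257 at an unadjusted p under 0.05. DESeq2 on the same reads called 125 of the 14032 genes to which it gave an adjusted p, 115 higher and 10 lower. Of these 125, 32 were above 0 in all 9 libraries and 26 were above 0 in fewer than 4 of the 9. With mouse 13 included, limma called 8 genes, all higher (0.0464%), none of which was above 0 in all 9 libraries. Rgs16, Poll and Xpr1 were among the 8.

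Among the 6358 genes above 0 in all 9 libraries, the median log2 difference was 0.08, with 55.4% of genes higher in Ac-6-FP libraries. Over the 10 libraries it was 0.46, and over all 17248 genes it was 0.35 (9 libraries) and 0.91 (10 libraries). Mouse 13, at 0 for 2272 of the 6358, is the library that separates the 2 values. After quantile normalization the median over all genes tested was -0.02. An unadjusted p under 0.05 was reached by 599 of these genes (9.42%), 422 higher (6.64%) and 177 lower (2.78%). Over all genes tested, groups did not overlap for 254 higher (1.47%) and 89 lower genes (0.516%). Groups did not overlap for 121 of the 6358 genes with Ac-6-FP higher (1.9%) and for 62 with Ac-6-FP lower (0.975%). With mouse 13 included these counts were 222 higher (1.29%) and 37 lower (0.215%) over all genes tested, and 98 (1.54%) and 33 (0.519%) among the 6358. In the 121, the lowest of the 4 vehicle libraries was mouse 12 for 43 genes and mouse 14 for 57 (35.5% and 47.1%), against 26.7% and 31.8% of all 6358, and these are the vehicle libraries with the fewest genes detected after mouse 13. The fit adjusted for the genes detected per library is called the detection covariate below.

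**Figure D2:**
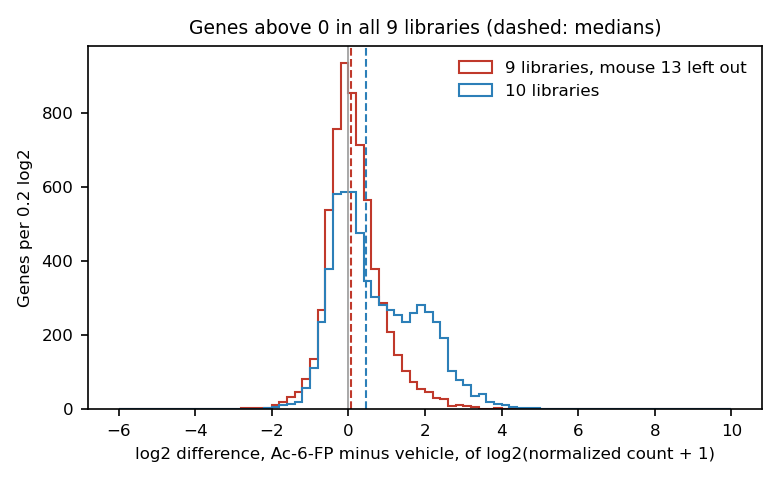
Number of genes (vertical axis) by log2 difference, Ac-6-FP minus vehicle (horizontal axis, bins of 0.2), for the 6358 genes above 0 in all 9 libraries, with mouse 13 left out (red) or included (blue). The dashed medians are 0.08 and 0.46, and the blue curve has a long right tail.

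Rgs16, a regulator of G protein signalling that speeds the return of G proteins to their resting state, showed the smallest p in the comparison. It was at 0 in every vehicle library, mouse 13 included, and at 166, 195, 263, 103 and 189 normalized counts in Ac-6-FP mice 16 to 20 (chromosome 1, 153740351 to 153745468, mm10). The groups did not overlap, and the mean with Ac-6-FP, 183 ± 57.6 (SD, n = 5), was at least 61.2-fold higher than 3 reads per vehicle library, the upper limit that a count of 0 allows. Its adjusted p was 0.0549 over 9 libraries and 0.0139 over 10 (limma), and ranged from 1.22e-11 to 0.497 over all alternatives. Rgs16 reached the group mean of 10 needed for testing only in the Ac-6-FP Ly6C low group. Over 9 libraries, the smallest adjusted p of any gene was 0.298 with no such filter and 0.219 with one at 100 (limma). In the Ly6C high libraries of the same mice, Rgs16 was at 0 in all 10. An unnamed locus covers the whole gene, was also at 0 in all 5 vehicle libraries and gave 115 to 232 normalized counts in Ac-6-FP libraries, so the reads of the 2 features cannot be told apart.

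Among 17248 genes tested, 15 with a symbol, Rgs16 included, were at 0 in all 4 vehicle and above 0 in all 5 Ac-6-FP libraries. Of the 15, 14 were also at 0 in mouse 13. No gene with a symbol showed the reverse. More widely, 2110 genes were at 0 in 1 or more of the 4 vehicle libraries and above 0 in every Ac-6-FP library, against 674 the other way, in a table where 10890 of 17248 genes were at 0 in at least 1 of the 9 libraries. The 5 with the highest Ac-6-FP mean were Rgs16, Tcaim, S100pbp, Poll and Xpr1. Poll, a DNA polymerase of base excision and end-joining repair, was at 73.8, 130.1, 35.9, 46.3 and 177 in Ac-6-FP mice 16 to 20, at least 30.9-fold over the vehicle limit (adjusted p = 0.19 over 9 libraries and 0.05 over 10). Xpr1, a phosphate exporter, was at 105, 26.9, 161, 136 and 32.5 in the same mice, also at least 30.9-fold (adjusted p = 0.19 and 0.05).

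These levels were low, and Tcaim (at least 35.0-fold) and S100pbp (at least 31.2-fold) were each under 10 normalized counts in at least 1 Ac-6-FP library. In the Ly6C high libraries, Poll reached 0 to 239.8 in vehicle and 0 to 131 in Ac-6-FP mice, and Xpr1 0 to 169 and 0 to 237, with both groups overlapping. Single libraries of Ly6C high cells were thus also at 0 for these genes, whereas Rgs16 was at 0 in every one of them.

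**Figure D3:**
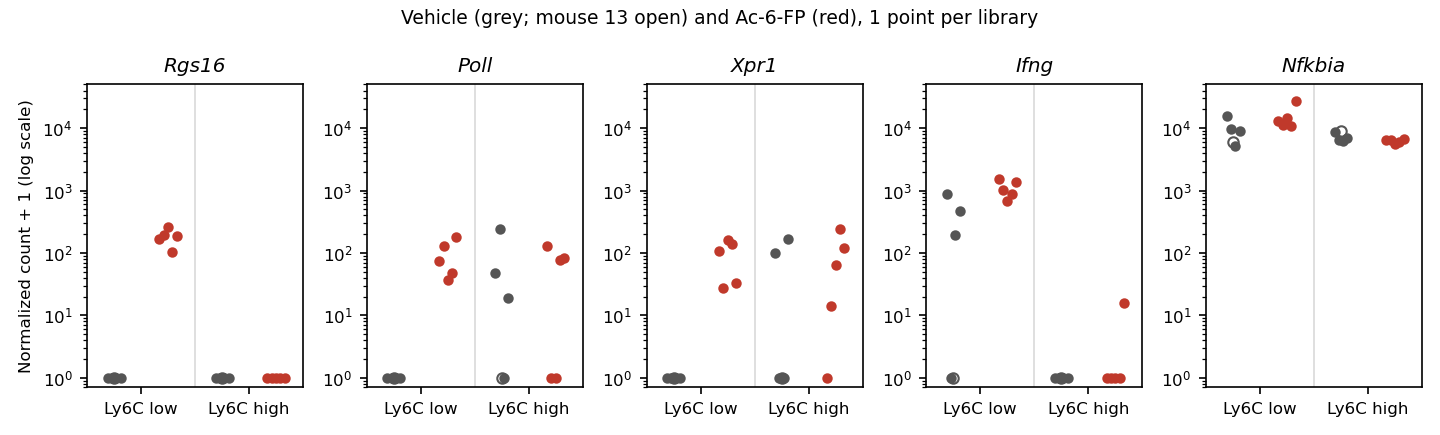
Normalized count plus 1 on a log axis for Rgs16, Poll, Xpr1, Ifng and Nfkbia in each library of the Ly6C low (left of each panel) and Ly6C high (right) subsets, with vehicle in grey, mouse 13 as an open circle and Ac-6-FP in red. Rgs16 is above 0 in the 5 Ac-6-FP Ly6C low libraries and at 0 in the other 15, and Nfkbia overlaps between groups in both subsets.

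Ifng encodes interferon gamma, a cytokine of T and NK cells that activates macrophages. It was at 881, 0, 195 and 466 normalized counts in vehicle mice 11, 12, 14 and 15, at 0 in mouse 13, and at 1531, 1021, 689.7, 875 and 1363 in Ac-6-FP mice. The highest vehicle library lay above the lowest Ac-6-FP library, so the groups overlapped. The log2 difference was 3.47 ± 1.69 (SE, adjusted p = 0.655), or 4.79 with mouse 13 (adjusted p = 0.517), and 2.32 with the detection covariate. Leaving out single libraries moved it from 1.29 (without mouse 12, the vehicle library at 0) to 4.55. An unnamed locus overlaps Ifng over its whole length.

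Genes of T and NK cells stood beside Ifng in these libraries. The summed level of 16 listed T and NK cell genes was 45449 to 68257 in the 4 vehicle libraries and 53311 to 103250 in the Ac-6-FP libraries. Prf1, which encodes the pore-forming protein of cytotoxic granules, was at 6480.1, 2275, 1606 and 5087 in vehicle and 7244, 4893, 6281, 5382 and 7090.5 in Ac-6-FP mice (log2 difference 0.88 ± 0.38, adjusted p = 0.655). Gzma, at 17527 to 28451 and 17801 to 37250.3, overlapped between groups (log2 difference 0.07, -0.10 with mouse 13). Cd3d, a chain of the CD3 complex that the gate selected against, was at 0, 2.48, 0 and 0 in vehicle and 100.3, 24.7, 119.5, 8.57 and 72.3 in Ac-6-FP mice, the groups not overlapping (adjusted p = 0.51), while Cd4 was at 0 in all 9 libraries. The part of these cells in the Ifng difference was not tested, and in bulk samples fewer cells of a type and less RNA per cell cannot be told apart.

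Of 19 genes of interferon gamma, its receptor and its targets that were tested, none passed the adjusted test, and 12 were above 0 in all 9 libraries 9 with a higher and 3 with a lower mean and a median log2 difference of 0.43 (0.08 over all 6358). With mouse 13 the median was 1.46 (0.46 over all 6358). Ifngr1, the ligand-binding receptor chain, was at 7263 to 12291 in vehicle and 10408 to 16749 in Ac-6-FP libraries (0.35 ± 0.18). Irf8, a transcription factor that interferon gamma induces and that macrophages need to mature, was at 379.8, 249, 106 and 731 in vehicle mice 11, 12, 14 and 15, 0 in mouse 13, and 919, 1603, 1177, 865 and 1867 in Ac-6-FP mice. All 5 Ac-6-FP libraries lay above all vehicle libraries (log2 difference 2.07 ± 0.51, adjusted p = 0.563), and with mouse 13 included the log2 difference was 3.71 (adjusted p = 0.517). The target genes Gbp2, Gbp7 and Igtp were at log2 differences of -0.16, -0.19 and -0.28, the 3 members with a lower mean. With mouse 13, Gbp2 was at -0.53 and Gbp7, at 0 in that library, turned to 1.52.

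Nfkbia encodes I-kappaB alpha, the inhibitor that holds NF-kappaB in the cytoplasm and is itself an NF-kappaB target. It was at 15598, 9640.1, 5259 and 8942 in vehicle mice 11, 12, 14 and 15, 6015 in mouse 13, and 13029, 11301, 14761, 10882 and 27329 in Ac-6-FP mice. Mouse 20 was highest, vehicle mouse 11 lay above 4 of the 5 Ac-6-FP libraries, and the log2 difference of 0.66 ± 0.34 did not pass (adjusted p = 0.657; 0.79 with mouse 13 and 0.42 with the detection covariate). Leaving out single libraries moved it from 0.40 to 0.92, the lowest without vehicle mouse 14, and it was 0.44 without Ac-6-FP mouse 20. In the Ly6C high libraries it was -0.24 ± 0.11. The difference of the responses between the subsets, tested within mice, was -0.83 ± 0.29 (Ly6C high minus Ly6C low, adjusted p = 0.848).

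The genes of the NF-kappaB list, Nfkbia among them, were grouped by role, and none of the 19 tested passed. Of the 12 above 0 in all 9 libraries, 8 had a higher and 4 a lower mean, from -1.13 to 1.01, with a median of 0.37 (0.65 with mouse 13). The subunit Nfkb1 was at 2589.8, 963, 948 and 1209 in vehicle and 2287, 2487, 2819.9, 1827 and 1707 in Ac-6-FP libraries (0.75 ± 0.31), vehicle mouse 11 lying within the Ac-6-FP range. Among the inhibitors, Nfkbib was at 0.81, Tnfaip3 (A20, a ubiquitin-editing enzyme) at 1.01, Tnip1 at 0.53 and Tnip3 at -0.85, and the deubiquitinase Cyld at -1.13. The kinase gene Ikbkb was at 866 to 1308 in vehicle and 777 to 1440.0 in Ac-6-FP libraries (0.08, 0.22 with mouse 13). Mouse 13 was at 0 for Tnfaip3 and Cyld, and with it their log2 differences were 2.60 and 0.42, so that of Cyld turned.

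Among 18 immediate early response genes above 0 in all 9 libraries, which cells switch on within minutes of a stimulus, 14 had a higher mean with Ac-6-FP, and the median of 0.69 was the highest of the 20 process lists in the 9 libraries (1.06 with mouse 13, where it was not the highest). No member passed the adjusted test, and no groups were separate. Nr4a1, a nuclear receptor that Ly6C low monocytes require, was at 10693, 1342, 554 and 4319.6 in vehicle mice 11, 12, 14 and 15, 584 in mouse 13, and 9713, 16433, 8301, 20349 and 20924 in Ac-6-FP mice (2.54 ± 0.75, adjusted p = 0.655). Zfp36, which encodes a protein that destabilizes cytokine mRNA, was at 43617, 6955, 2349.8 and 16937 and 28159.8, 36134, 26587, 40992 and 40314 in the same order (1.69 ± 0.68). Vehicle mouse 11 lay within the Ac-6-FP range for Nr4a1 and above it for Zfp36, while mice 12 and 14 were far below it in both genes. With the detection covariate, the log2 difference was 1.69 for Nr4a1 and 0.97 for Zfp36, and without mouse 14 it was 0.97 for Zfp36. The growth-arrest gene Btg2 was at 7964 to 21563 in vehicle and 18569.6 to 24919 in Ac-6-FP libraries (0.82 ± 0.25), whereas Dusp1, a phosphatase gene of the same response, was at -0.15 (-0.09 with mouse 13).

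Of the 9 genes of the RGS family tested, 2 were higher at an unadjusted p under 0.05 (Rgs16 and Rgs14) and 1 was lower (Rgs1), against 5.77% higher and 1.46% lower of all genes tested. Rgs14, which also binds Ras-like GTPases, was at 336, 52, 0 and 0 in vehicle mice 11, 12, 14 and 15, 0 in mouse 13, and 158, 262, 643, 446 and 414 in Ac-6-FP mice (adjusted p = 0.655), and vehicle mouse 11 lay within the Ac-6-FP range. Rgs2 was at 3497 to 6001 in vehicle and 3447 to 6591 in Ac-6-FP libraries (0.17 ± 0.22, 0.10 with mouse 13), Rgs10 at 0.27 (0.08 with mouse 13), Rgs18 at -0.51 and Rgs19 at 0.26. With single libraries left out, Rgs10 ranged from 0.08 to 0.44, Rgs18 from -0.73 to -0.27 and Rgs19 from 0.01 to 0.46. Rgs1, which desensitizes chemokine receptors, was at 5562, 3464, 2628 and 1817 in vehicle mice and 1705, 1269, 2183, 1514 and 2622 in Ac-6-FP mice (-0.78 ± 0.33, adjusted p = 0.655, -0.50 without mouse 11), on the other side of 0 from Rgs16. Of the 18 family genes in the table, 5 were above 0 in all 9 libraries, with a median of 0.17 (0.08 with mouse 13).

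Since no gene above 0 in all 9 libraries passed, the 15 genes in each direction with the smallest unadjusted p among those whose groups did not overlap are described. Their adjusted p was 0.259 to 0.563 for the higher and 0.51 to 0.655 for the lower genes (limma), and for a single gene the smallest two-sided exact permutation p that 4 against 5 libraries can give is 0.0159. DESeq2 on recovered reads passed 12 of the 15 higher and 4 of the 15 lower genes, and edgeR none (smallest adjusted p = 0.497). Over all 14032 genes with an adjusted p, DESeq2 passed 125, of which 32 were above 0 in all 9 libraries. The leading genes were chosen by small p and separate groups in these same libraries. Their DESeq2 values, here and gene by gene below, are therefore no independent support. Mouse 13 was at 0 for 5 of the higher genes and 1 of the lower ones. Its value lay above the other vehicle libraries for 5 of the higher genes and under them for 6 of the lower genes (Dkc1, Wdr26, Cope, Gpr183, Nedd8 and Fam111a), whose groups overlapped with mouse 13 included. With the detection covariate the log2 differences of the higher genes were 0.47 to 2.18 and those of the lower genes -1.30 to -0.33, against 0.46 to 2.83 and -1.28 to -0.41 without it.

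Socs3, a feedback inhibitor of STAT3 signalling downstream of interleukin-6 type cytokines, had the smallest p among them. It was at 348, 367, 369.9 and 380.0 normalized counts in vehicle mice 11, 12, 14 and 15, 279.7 in mouse 13, and 660.3, 1169, 1040.0, 896 and 907 in Ac-6-FP mice 16 to 20. The vehicle libraries were tightly grouped and all lay below the lowest Ac-6-FP library, mouse 16. The means were 366 ± 13.5 (SD, n = 4) and 934 ± 189 (SD, n = 5), a log2 difference of 1.33 ± 0.24 (adjusted p = 0.259 in limma and 6.89e-05 in DESeq2), 1.40 with mouse 13 and 1.37 with the detection covariate. In the Ly6C high libraries the log2 difference was 0.43 ± 0.41, and the difference between the subsets did not pass (adjusted p = 0.848). Socs3 lies on chromosome 11, 117966089 to 117969366 (mm10), where an unnamed locus covers it fully.

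The leading genes are taken by what each is known for, without a test of any such grouping. Scarb1, the receptor for high-density lipoprotein and for apoptotic cell lipids, was at 408, 415, 246 and 234 in vehicle mice 11, 12, 14 and 15, 0 in mouse 13, and 949, 995, 837, 918 and 649 in Ac-6-FP mice, a log2 difference of 1.45 ± 0.28 (adjusted p = 0.371, 0.00287 in DESeq2) that was 3.11 with mouse 13 (adjusted p = 0.542). Hexa, the alpha subunit of lysosomal beta-hexosaminidase, was at 2412, 1324, 1419.8 and 2111 and 2741, 3698, 3797, 3083 and 3240.1 (0.90 ± 0.21), with 593 in mouse 13. Slc11a1, a metal transporter of the phagosome membrane, was at 2181, 1336, 988 and 2236 and 2464, 4882, 3384, 6567 and 4793 (1.39 ± 0.33). For each of these genes vehicle mice 11, 12, 14 and 15 all lay below every Ac-6-FP library, and the gap was narrowest in Slc11a1 and Hexa.

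Stk10, a kinase of membrane-to-actin linker proteins, was at 655, 118, 186 and 612 in vehicle mice 11, 12, 14 and 15, 0 in mouse 13, and 1260.1, 2446, 1112, 4754 and 3101 in Ac-6-FP mice, the widest log2 difference of the 30 at 2.83 ± 0.62 (2.18 with the detection covariate, 4.49 with mouse 13, DESeq2 adjusted p = 0.00115). Fmnl1, an actin-nucleating formin, was at 1.61, Coro1b, an actin-binding coronin, at 1.03, and Mtpn, which binds the actin capping protein, at 0.46. Rasgrp4, which loads Ras with GTP, was at 196, 107, 64.9 and 113 and 236, 552, 341, 469 and 524 (1.85 ± 0.46), and at 0 in mouse 13, with which the log2 difference was 3.22. Arf4, a small GTPase of the Golgi, was at 4231, 2755, 2654 and 3883 in vehicle and 4766, 5384, 6325, 6269.6 and 6331 in Ac-6-FP mice (0.80 ± 0.18), with 4627 in mouse 13. Mouse 13 lay above the other vehicle libraries and within the Ac-6-FP range for Fmnl1 (1238) and Pole4 (933). It lay above every Ac-6-FP library for Cndp2 (2241, against 1721 to 2141) and St3gal6 (1267, against 435 to 1069).

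The remaining higher genes were St3gal6, a sialyltransferase (1.43), Pole4, a subunit of DNA polymerase epsilon (1.03), Wsb1, a ubiquitin ligase adaptor (1.10), Cndp2, a cytosolic dipeptidase (0.70), and Fam234a (1.91). Wsb1 and Fam234a were at 0 in mouse 13, with which they were at 2.91 and 3.55. In the Ly6C high libraries, which come from the same mice, the log2 differences of these 15 genes ranged from 0.07 for Arf4 to 3.77 for Stk10. For none of the 30 leading genes did the difference in response between the subsets pass the test (smallest adjusted p = 0.848).

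**Figure D4:**
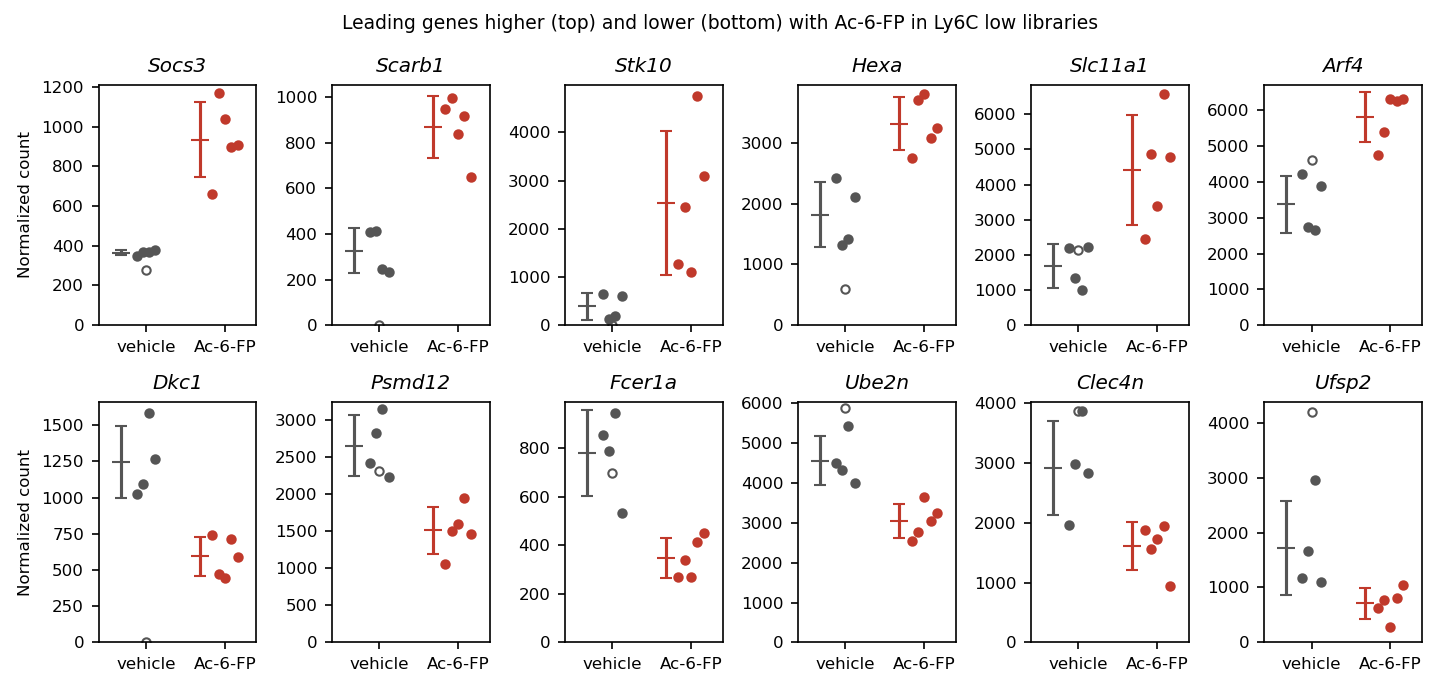
Normalized count in each Ly6C low library for 6 leading genes higher with Ac-6-FP (top) and 6 lower (bottom), with vehicle in grey, mouse 13 as an open circle and Ac-6-FP in red, and bars at the mean ± SD of 4 vehicle and 5 Ac-6-FP libraries. The filled grey and red points do not overlap in any panel, for example 348 to 380.0 against 660.3 to 1169 in Socs3, while mouse 13 is at 0 in Scarb1, Stk10 and Dkc1.

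Among the lower genes, Psmd12, a subunit of the proteasome lid, was at 2412, 2825, 3138 and 2224 in vehicle mice 11, 12, 14 and 15, 2310.3 in mouse 13, and 1059, 1504, 1599, 1943 and 1462 in Ac-6-FP mice (-0.82 ± 0.20, adjusted p = 0.563, 0.0278 in DESeq2). Ube2n, which builds the K63-linked ubiquitin chains used in NF-kappaB signalling, was at 4493, 4316, 5422 and 3989.8 and 2537, 2775, 3635, 3048 and 3244 in the same order (-0.58 ± 0.15, DESeq2 adjusted p = 0.0399). Both genes were lower in every Ac-6-FP library than in any vehicle library, mouse 13 included. Nedd8, the modifier that activates cullin ligases, was at -0.42, Wdr26, a subunit of a ubiquitin ligase, at -0.74, and Ufsp2, which removes the modifier UFM1, at -1.28 ± 0.42. Vehicle mouse 13 lay under the other vehicle libraries for Nedd8 (2104) and Wdr26 (1029), and with it the log2 difference of Nedd8 was -0.16 (adjusted p = 0.789).

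Fcer1a, the IgE-binding chain of the high-affinity receptor, was at 853, 785, 945 and 533 in vehicle mice, 697 in mouse 13, and 271, 339.9, 270.2, 413 and 449.9 in Ac-6-FP mice (-1.16 ± 0.29, DESeq2 adjusted p = 0.0142). Clec4n, which encodes the fungal receptor dectin-2, was at 1967, 2976, 3873 and 2824 and 1874, 1559, 1733, 1938 and 942 (-0.86 ± 0.26), with only a narrow gap between vehicle mouse 11 and Ac-6-FP mouse 19. Clec4b1, another C-type lectin gene of chromosome 6, was at 1334, 1201, 2035 and 1043 and 713, 877, 1032, 368 and 314 (-1.19 ± 0.40). Gpr183, an oxysterol receptor that guides cell migration, was at -1.02 ± 0.32 (-0.66 with mouse 13). In the Ly6C high libraries the log2 difference was -1.10 ± 0.43 for Clec4n, -1.23 ± 0.39 for Clec4b1 and 1.10 ± 1.07 for Fcer1a.

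Dkc1, the pseudouridine synthase of small nucleolar particles and of telomerase, was at 1026, 1094, 1583 and 1268 in vehicle mice 11, 12, 14 and 15 and 745, 474, 446, 712 and 590.0 in Ac-6-FP mice (-1.08 ± 0.24, DESeq2 adjusted p = 0.0113). Mouse 13 was at 0, so over 10 libraries the log2 difference turned to 0.98. Brix1, a factor of large ribosomal subunit assembly, was at -0.80 ± 0.26. The others were Cope, a coat protein of Golgi vesicles (-0.41, -0.26 with mouse 13), Hspa14, a heat shock protein of the ribosome (-0.58), Tbcb, a tubulin folding factor (-0.55), and Fam111a, a protease that restricts viruses (-0.69). Scarb1, Mtpn, Hspa14, Zfp36, Apoe and Ctsd overlap unnamed loci, Myd88 overlaps Acaa1a and Wdr48, Cope overlaps Pik3r2 and Gpr183 overlaps Ubac2, each over its whole length, and how strand was handled in counting is not given in the sources used here.

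Processes named for macrophages in fibrosis were described by 20 gene lists. No list held a gene past the adjusted test over 9 libraries, and over 10 libraries Rgs16 was the only one. The medians and counts of higher members given next are over members above 0 in all 9 libraries, with the median over 10 libraries in parentheses, beside 0.08 (0.46) for all 6358 such genes. Over all members tested, zeros included, the medians were higher by more than 1.5 times for NF-kappaB (0.66), RGS (0.27), type I interferon (0.86), MAIT cell cytokine (1.20), apoptosis (0.20), autophagy (0.84), glycerophospholipid (0.79) and stellate cell growth factor genes (1.63), beside 0.35 for all 17248. Lysosomal genes had 15 of 22 members higher and a median of 0.19 (0.32), and 7 of the 27 tested were at an unadjusted p under 0.05, all higher (5.77% of all genes tested). The share was no lower in housekeeping genes, 4 of 12, all higher. Ctsd, a lysosomal protease, was at 11484, 5475, 2490.3 and 9641 in vehicle and 13994, 14137, 11057, 14792 and 21077 in Ac-6-FP libraries (1.24 ± 0.40), and Psap, the precursor of the saposins, at 68700.5, 21609, 12497 and 41775 and 52129.6, 67552, 55839, 61082 and 64237 (1.01 ± 0.41). In both, vehicle mice 12 and 14 were low, and mouse 11 lay within the Ac-6-FP range for Ctsd and above it for Psap. Without mouse 14 the log2 difference was 0.79 for Ctsd and 0.60 for Psap, and with the detection covariate 0.81 and 0.60. Grn, which encodes progranulin, was at 1.62 and Ctsb at 0.52.

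Autophagy genes had a median of 0.16 (1.30), with 10 of 15 members higher. Sqstm1, the autophagy receptor p62, was at 496, 401, 260.5 and 1682 in vehicle and 1286, 1939, 1469, 1587 and 2466 in Ac-6-FP libraries (1.65 ± 0.48, adjusted p = 0.655), with vehicle mouse 15 within the Ac-6-FP range. Map1lc3b, the autophagosome protein LC3B, was at 9834, 14027, 13116 and 10704 and 9789, 5613, 8326, 10171 and 8879 (-0.49 ± 0.19), on the other side of 0. Apoptosis and survival genes had 11 of 20 members higher and a median of 0.07 (0.39). Mcl1, which protects cells from apoptosis, was at 3795 to 4658 in vehicle and 2384 to 4525 in Ac-6-FP libraries (-0.44 ± 0.19), Casp1 at -0.47 and Bax at 0.19 (-0.76 and 0.40 with mouse 13).

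Glycerophospholipid synthesis genes had 10 of 11 members higher and a median of 0.44 (1.12). Lpin1, which makes diacylglycerol from phosphatidic acid, was at 246, 4.96, 4.45 and 251 in vehicle and 613, 312, 326, 295 and 370.1 in Ac-6-FP mice, without overlap, and its log2 difference of 3.29 ± 1.26 (adjusted p = 0.655) includes vehicle mice 12 and 14, both at under 5 normalized counts. Lpcat3 was at 0.73 and Gpd2 at 0.73 (2.65 with mouse 13). Efferocytosis and scavenger receptor genes had 7 of 11 members higher and a median of 0.22 (1.38), with Scarb1 and Elmo1 the members without overlap (1.9% of the 6358 were higher without overlap). Elmo1, an engulfment adaptor, was at 486, 225, 58.7 and 349.7 and 524, 922, 524, 788 and 887 (1.69 ± 0.57, 3.25 with mouse 13, which was at 0, and 1.07 without mouse 14). The scavenger receptor gene Msr1 was at -0.91 (-0.43 without mouse 12).

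Restorative and scar-associated macrophage genes were split, with 6 of 13 members higher and a median of -0.14 (0.42). Apoe was at 327, 2104, 1212 and 5726 in vehicle and 3439.8, 5642, 3740.4, 3552 and 12537 in Ac-6-FP libraries (1.77 ± 0.73, 1.04 without mouse 11). Trem2 was at 0.59, Gpnmb at 1.89 (3.06 with mouse 13) and Spp1, which encodes osteopontin, at -0.97. The growth factor gene Igf1 was at -1.58 (-0.84 without mouse 16) and turned to 0.34 with mouse 13. MHC class II presentation genes had 8 of 9 members lower and a median of -0.23 (-0.01), the lowest of the 20 lists in both. Cd74, the invariant chain, was at 238550.0 to 445874 in vehicle and 182283 to 355811 in Ac-6-FP libraries (-0.31 ± 0.24, -0.20 with mouse 13), and H2-Ab1 at 86359 to 116774 and 54743 to 113603 (-0.23 ± 0.22). No member reached an unadjusted p under 0.05, and reads of these genes may be shared between similar copies.

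Toll-like receptor genes and adaptors had 12 of 15 members higher and a median of 0.53 (1.60), with Tlr13 at 0.70 and Myd88 at 0.63. Inflammatory cytokine and chemokine genes had 10 of 13 members higher and a median of 0.27 (0.75), with Il1b at 0.76 (2.60 with mouse 13), Ccl4 at 0.60, Cxcl2 at 0.64 (1.05 with mouse 13) and Osm, which encodes oncostatin M, at 1.89 ± 0.79 (1.04 without mouse 14). The lowest values with single libraries left out were 0.40 for Il1b, 0.34 for Ccl4 and 0.33 for Cxcl2. Ccl17, a chemokine for T cells that is at 0 in some libraries, was at 209.7, 282, 146 and 507 in vehicle mice 11, 12, 14 and 15, 0 in mouse 13, and 60.5, 130.1, 130.3, 8.57 and 0 in Ac-6-FP mice. It was the list's only member without overlap among the 9 libraries, on the lower side (adjusted p = 0.655), and overlapped with mouse 13. Of genes for MAIT cell cytokines and their receptors, Il17a, Il17f, Il22 and Csf2 had a mean under 10 normalized counts in every group, and the 3 above 0 in all 9 libraries had a median of 0.40 (1.86). Type I interferon stimulated genes had 5 of 9 members higher and a median of 0.14 (0.49). Irf7, a master regulator of that response, was at 1077, 753, 190.3 and 321 in vehicle and 1137, 1779, 1237, 1219.8 and 1492 in Ac-6-FP libraries, without overlap (1.52 ± 0.47, adjusted p = 0.655; 3.30 with mouse 13, which was at 0), while Isg15 was at -0.43 (-0.67 with mouse 13). Mx1, an antiviral GTPase that is at 0 in some libraries, was at 100.2, 159, 26.7 and 112 in vehicle mice 11, 12, 14 and 15, 0 in mouse 13, and 0, 0, 0, 4.28 and 0 in Ac-6-FP mice. It was thus lower without overlap among the 9 libraries (adjusted p = 0.259) but not with mouse 13 (adjusted p = 0.492).

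Complement genes had 8 of 9 members higher and a median of 0.29 (0.94), with C3 at 1.16 ± 0.41 (2.65 with mouse 13) and the anaphylatoxin receptor gene C5ar1 at 0.80 ± 0.30. Heat shock and unfolded protein response genes had 14 of 17 members higher and a median of 0.19 (0.44), with Ppp1r15a, a phosphatase subunit of the stress response, at 6269, 473, 213 and 3376 in vehicle and 4602, 4793, 4393, 5770.2 and 7797 in Ac-6-FP libraries (2.14 ± 0.87, 1.31 without mouse 14). Mitotic cell cycle genes (6 members) had a median of 0.43 (1.59) and the 2 growth factor genes acting on stellate cells one of 0.15 (1.11). The 12 housekeeping genes had the same median of 0.19 (0.61) as the lysosomal and stress lists over 9 libraries, and Ywhaz among them was higher without overlap. Actb, which encodes beta-actin, was at 62538, 23200.2, 14259 and 36043 in vehicle and 43856, 81767, 52943, 52789.5 and 70919.6 in Ac-6-FP libraries (1.00 ± 0.38, 0.66 without mouse 14), and Gapdh was at 0.88 ± 0.27. Vehicle mice 12 and 14 were thus low for Actb as they were for Psap, Zfp36 and Nr4a1.

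**Figure D5:**
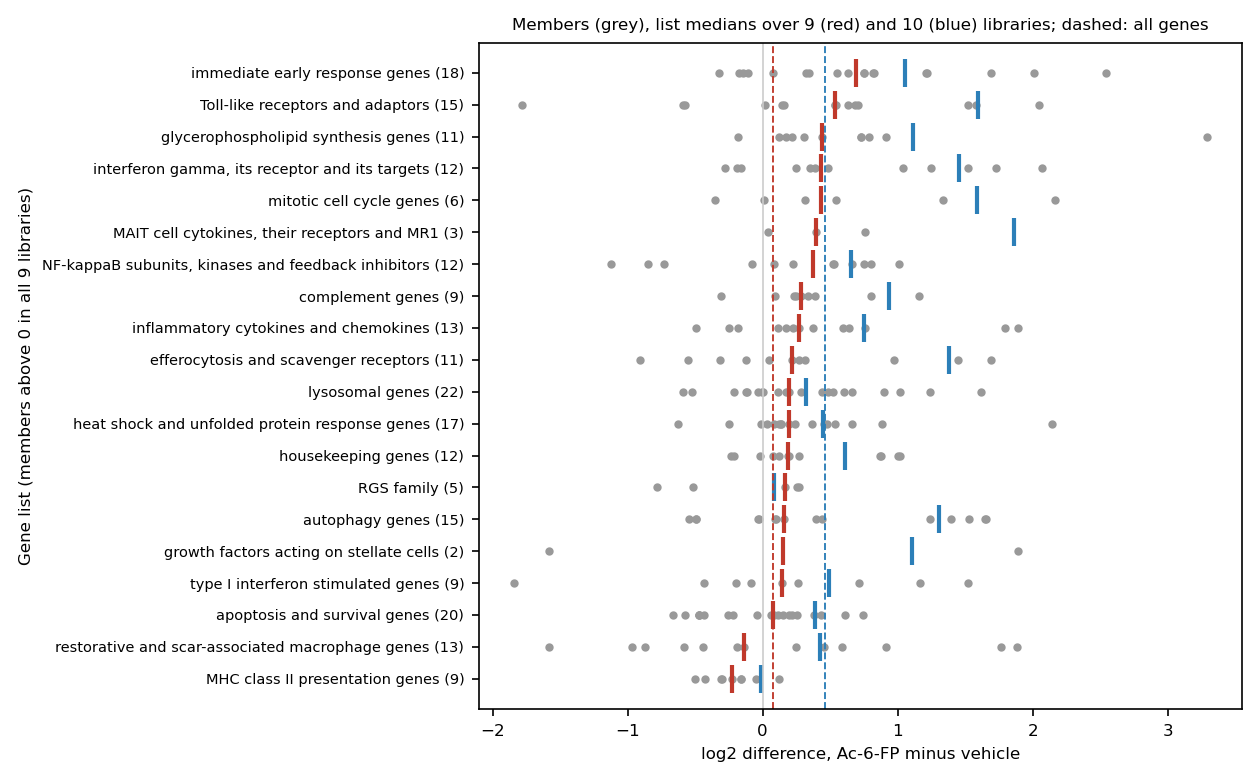
Log2 difference, Ac-6-FP minus vehicle (horizontal axis), of the members above 0 in all 9 libraries (grey points) of each of the 20 process lists, with the list median over 9 libraries (red) and 10 libraries (blue) and the medians of all 6358 genes as dashed lines (0.08 and 0.46). Immediate early genes have the highest red median (0.69) and MHC class II genes the lowest (-0.23), and most blue medians lie to the right of the red ones.

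Markers of other cells in or near the gate were summed in the 4 vehicle and 5 Ac-6-FP libraries. The 9 genes of Ly6C low monocytes and macrophages summed to 17007 to 36629 in vehicle and 32529 to 68931 in Ac-6-FP libraries, and the 8 of Ly6C high monocytes to 26183 to 44356 and 28145 to 45396. Within the first list, Itgal, an integrin of patrolling monocytes, was at 3065, 735, 1665 and 2407 in vehicle and 3447, 6222, 4399, 7568 and 4554 in Ac-6-FP libraries, without overlap (1.54 ± 0.40, adjusted p = 0.605). Neutrophil genes summed to 9998 to 61518 and 21452 to 133417, Kupffer cell genes to 2106 to 6841 and 2892 to 5585, and dendritic cell genes to 13011 to 22382 and 9088 to 22825. Hepatocyte genes (8 of 10 in the table) summed to 1964 to 4721 and 2017 to 3634, and endothelial genes to 633 to 2115 and 1008 to 4451.

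B cell genes (6 listed) summed to 394 to 778 in vehicle and 766 to 1284 in Ac-6-FP libraries. Stellate cell and myofibroblast genes, 3 of 9 of which were at 0 in all 9 libraries, summed to 0 to 139 in vehicle and 141 to 306 in Ac-6-FP libraries, low levels that did not overlap. Adjusted over the 13 marker lists, their exact permutation p was 0.206. Erythroid genes (3 of 5 in the table) were high in vehicle mouse 12 (17649) and Ac-6-FP mouse 16 (34311) alone. The part of these cells in the differences above was not tested.

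The responses of the 2 subsets were compared within mice, the mouse being a block, with mouse 13 left out. Log2 differences of the Ly6C high libraries given above rest on all 5 vehicle and 5 Ac-6-FP mice. No gene passed (limma, 0 of 17248, 857 or 4.97% at an unadjusted p under 0.05). For Rgs16 the difference of the responses was -7.46 ± 1.19 (Ly6C high minus Ly6C low, adjusted p = 0.547), and without the mouse as a block it passed, with an adjusted p of 0.0101. For Ifng it was -2.68 ± 2.06 and for Socs3 -1.08 ± 0.55. The mice of each group gave both libraries, so the 2 subsets share their animals.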

How the data were processed

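RNA of 30000 sorted cells per library was sequenced in Ly6C high and Ly6C low MoMac of 10 mice. The authors aligned 75-base reads with STAR (2.4.0 in the submitters' processing notes) to mm10, counted reads per gene of the FAST DB annotation and divided the counts by DESeq size factors. The deposited unit is therefore a signal: normalized counts on a linear scale, without length correction. Groups and mouse numbers came from the sample titles and treatment labels. The numbers pair libraries of the same mouse. The correlation of paired deviations was low, 0.00334 to 0.228, so the pairing rests on the titles.

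In each Ly6C low library the values were whole multiples of 1 step (100% within 0.006 of a whole read), so reads could be recovered. The table holds 59311 genes, 60.5% of them without a symbol. Genes with a mean of at least 10 in 1 of the 4 groups were tested (17248) on log2(value + 1) with limma 3.58.1 (trend, robust prior, unpaired, R 4.3.3) and Benjamini-Hochberg adjustment at 0.05 over all of them. A difference on this scale can be narrower for genes at 0 in a whole group, as for Rgs16 (7.46, against 9.91 in DESeq2). It can be wider where single libraries are at or near 0, as for Ifng (3.47 against 1.48) and Lpin1 (3.29 against 1.59). The single-value test was an exact permutation test, two-sided. The response of the subsets was compared with the mouse as a block. edgeR 4.0.16 and DESeq2 1.42.0 were run on recovered reads as alternatives, beside other pseudocounts, filters, scalings and libraries left out. The fits were tested on simulated data. P-values measure the spread between these mice, and the floor of 3 reads covers counting error only.

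Named genes were the 3 given markers, in each direction the genes with the largest log2 difference among those past the threshold, filled to 15 with the smallest unadjusted p among genes above 0 in all 9 libraries whose groups did not overlap, up to 4 members per process list, and the 5 highest genes at 0 in all vehicle libraries. Detected NF-kappaB, immediate early and RGS genes beyond these were given by range and not run under the alternatives. Other genes named, single cell type markers among them, were chosen after their values were seen. Members and lists were chosen with earlier results of these data known. Promoter windows came from RefSeq, GRCm38.p6. Python 3.11.15 with pandas 2.3.3 was used for tables and matplotlib 3.10.9 for figures. One gene of the interferon gamma list counts in its totals but is not reported here by name.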

Additional observations from a re-analysis of the deposited data

Results flagged for a closer look

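In 5 of 220 groups of 4 or 5 libraries tested over the 108 named genes, the highest or lowest library stood apart from the others by Dixon's gap on the log2 scale, where chance gives about 1 in 20. Hspa14 was lowest in vehicle mouse 14 at 1745 normalized counts, and the other 3 vehicle libraries lay between 2314 and 2442. Tlr13 was lowest in vehicle mouse 12 at 2567, and the other 3 between 5451 and 5722. Ctsb was highest in vehicle mouse 15 at 88015, within the Ac-6-FP range. Oasl2, an interferon stimulated gene, was lowest in Ac-6-FP mouse 19 at 230.4, and Mcm3, a replication licensing gene, was lowest in Ac-6-FP mouse 18 at 62.2. No difference of response between the subsets was past its threshold among the named genes.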

How the results depend on the processing

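The count of 0 genes past the adjusted threshold became 8 with mouse 13 included, 2 with mouse 13 included under array weights, 125 in DESeq2 on recovered reads and 2 with a prior without robust estimation. It ranged from 0 to 55 when each library was left out in turn, and 55 was reached without mouse 11, with 54 genes higher. The other alternatives (pseudocounts of 0.1 and 10, filters, quantile normalization, the detection covariate and edgeR) kept it at 0. The cause of these changes was not tested. The response compared between the subsets called 0 genes with the mouse as a block, also with each mouse left out, and 2 genes with no replicate block, Rgs16 and the locus that overlaps it. The block changed no other call. The difference in genes detected, 3072, ranged from 1669 to 4264 with single libraries left out, and passed only without mouse 11.

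Signs turned for few named genes. With mouse 13 included the log2 difference was 0.98 for Dkc1, 0.34 for Igf1, 1.13 for Casp4, 0.14 for Fas and 1.50 for Mcm3, which was 0.32 under array weights and 0.20 in edgeR over 10 libraries. That edgeR fit gave -0.022 for Rgs10 and -0.0046 for Atg5. Quantile normalization gave -0.065 for Csf2ra and -0.17 for Tnfrsf1a, and the detection covariate -0.33 for Tnfrsf1a. Leaving out single libraries gave -0.044 to 0.70 for Csf2ra, -0.22 to 0.32 for Tnfrsf1a and -0.73 to 0.37 for Mcm3. The others of the 108 genes run under the alternatives kept their direction. Of the 108, 46 moved by over 1.5 times when single libraries were left out, 22 of them without mouse 14. Such values are given above for only some of the 46. None of the 46 was among the 30 leading genes. Those 30 were chosen by small p and separate groups in the same libraries, so their steadiness is no independent support. Other genes in the text were compared over 9 and 10 libraries alone, where Cyld, Gbp7 and Gzma turned. Zeros limit the comparison, since 10890 of the 17248 genes were at 0 in at least 1 of the 9 libraries.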
